A study of Mus musculus with 8 samples.

Results

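The keratin and tubulin genes described here are 10 genes, 3 keratins and 7 tubulins, measured by RNA sequencing of injured livers of Fah-/- mice. They were taken by symbol (Krt8, Krt18, Krt23, Tuba1a, Tuba1b, Tuba1c, Tubb2a, Tubb2b, Tubb5 and Tubb6) from a table of 22504 genes, and all 10 were listed and passed the floor on low values that left 10244 genes for testing. All 8 mice were Fah-/- on the 129S4 background, so every group lacked the last enzyme of tyrosine breakdown and depended on the drug NTBC, which acts upstream in the same pathway and was given at 7.5 mg/L in drinking water. The C 8w group (3 mice, 1a, 2a and 3a) had 8 weeks of moderate chronic liver injury (MCLI), in which NTBC was cut to 2.5% of that dose. The C 8w + A 4w group (3 mice, C096, C097 and C098) had 8 weeks of MCLI and then 4 weeks of severe acute liver injury (SALI), in which NTBC was withdrawn, and these are called the SALI mice. The C 12w group (2 mice, 2e and 3e) had 12 weeks of MCLI, and its tissue was labelled tumor where the others were labelled liver, so the longer MCLI and the tissue cannot be told apart. The labels give no age, and no uninjured group was analysed here.

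Keratins are the intermediate filament proteins of epithelial cells and assemble as pairs of a type I and a type II chain. In hepatocytes the pair is keratin 18 (type I) with keratin 8 (type II), and both are known to accumulate in chronic liver injury, where they can aggregate with chaperones and ubiquitin into Mallory-Denk bodies. Microtubules are polymers of α-tubulin and β-tubulin dimers. They serve as tracks for secretory vesicles in resting hepatocytes and form the spindle in dividing ones. Each of the tubulin chains is made from several genes of very similar sequence.

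Expression is given as FPKM (fragments scaled to gene length and to the mapped fragments of the sample), a unit per length that allows levels of different genes to be set side by side. Differences between groups are on the log2(FPKM + 1) scale with the standard error (SE) of limma, and a gene is called where the Benjamini-Hochberg adjusted p over all genes tested was under 0.05. This scale understates the change of genes near or below an FPKM of 1. Where a value is given without 2e or without 3e, the C 12w group is the 1 mouse left, assumed to vary like the other groups. Read counts are not kept in FPKM, so sequencing depth is unknown, and in bulk tissue fewer cells of a type and less RNA per cell cannot be told apart. The labels number the SALI mice by another code than the other 5 mice, so the code cannot be told apart from the group. Of 12 hepatocyte markers, 9 were at 73.4 FPKM or more in every sample (Ttr between 2579 and 6614). The other 3 were listed lower outside the SALI mice. Alb was at 0, Serpina1e at 1.06 FPKM or less and Ass1 at 5.86 to 37.4 FPKM in C 8w and C 12w. In the SALI mice these genes were at 12946 or more, 5.73 or more and 267 FPKM or more. Whether the 0 of Alb is a level or a missing value is not known. Whether the values were made alike for both kinds of code was not tested, which limits every comparison with the SALI mice. An extraction note in the labels speaks of retinas, but 7 of 8 retinal markers were under 1 FPKM in every sample. Fah itself was listed at 13.5 to 16.8 FPKM in C 8w and C 12w and at 5.02 to 6.36 FPKM in the SALI mice.

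Most of the 10 genes were higher after 4 further weeks of injury, of either kind, than at 8 weeks of MCLI. After SALI, 8 of the 10 were called higher than in C 8w and none lower, and in C 12w 7 were called higher than in C 8w and none lower. Of all genes tested, 25.3% were called higher and 14.1% lower in the first comparison (39.4% in all), and 12.2% higher and 6.98% lower in the second (19.2% in all). In the first comparison the groups did not overlap for 9 of the 10 genes, all higher with SALI, where 61.4% of all genes tested did not overlap (39% higher, 22.3% lower). In the second they did not overlap for 8 genes that were higher and 1 that was lower in C 12w, where 54.5% of all genes tested did not overlap (34.9% higher, 19.6% lower). The median difference over the 10 genes was 1.00 after SALI and 1.02 in C 12w, and over all genes tested it was 0.12 in both. Both counts include Tuba1a and Tubb2b, which reached the floor of FPKM 1 in 4 samples only through the later groups. The 7 of C 12w fell to 4 without any 1 of the C 8w mice or without the floor, and the genes called there were between 677 (without 1a) and 3702 (without 2e) with 1 sample left out, against 1962 with all. Both comparisons use the same 3 C 8w mice, so they are not independent of each other. The 10 genes were chosen with earlier results of these data known, so their excess over all genes tested is given as a description.

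**Figure D1:**
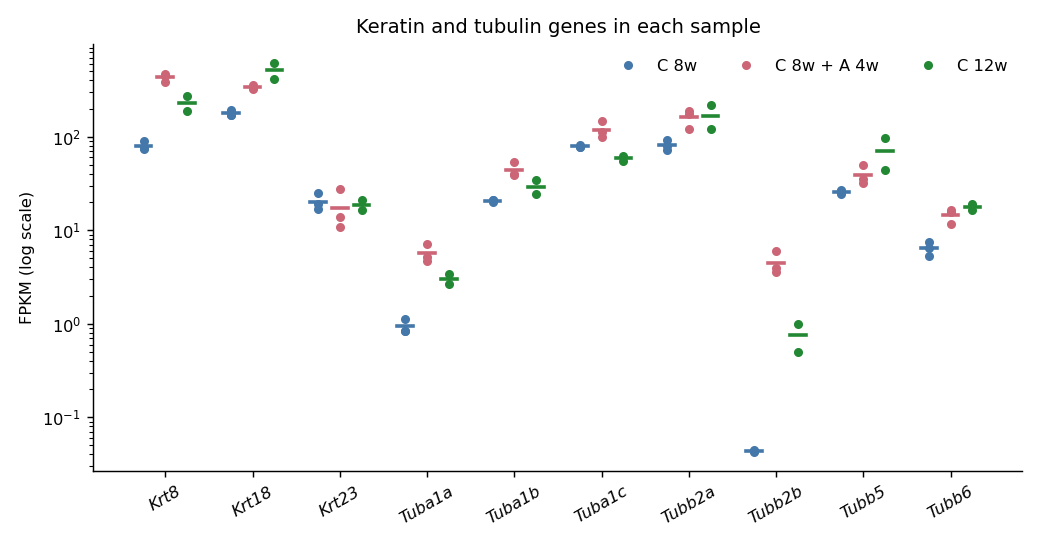
FPKM of the 10 genes in each sample on a log axis, with points for mice and short lines for group means. Krt8, Tuba1a and Tubb2b were highest in all 3 C 8w + A 4w mice, Krt18 was highest in both C 12w mice, and the 3 groups overlapped for Krt23.

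Krt8, the type II keratin of hepatocytes, was called in all 3 comparisons. In C 8w it was at 74.5, 75.7 and 89.1 FPKM in 1a, 2a and 3a. After SALI it was at 465, 386 and 448 FPKM in C096, C097 and C098. In C 12w it was at 189 and 272 FPKM in 2e and 3e. The 3 groups did not overlap and stood in the order C 8w, C 12w, the SALI mice. The mean rose 5.43-fold from 79.7 ± 8.09 (SD, n = 3) to 433 ± 41.4 FPKM (SD, n = 3) with SALI, a log2 difference of 2.43 (SE 0.17, limma adjusted p = 1.90e-05). In C 12w it was 2.89-fold above C 8w, a log2 difference of 1.50 (SE 0.19, limma adjusted p = 0.00268). Krt8 was also higher in the SALI mice than in C 12w, by 0.92 on the log2 scale (SE 0.19, limma adjusted p = 0.00708). By level it moved from rank 593 to 691 among the listed genes in C 8w to rank 105 to 112 after SALI.

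Krt18, the type I partner, showed another order. It was at 171, 169 and 192 FPKM in 1a, 2a and 3a of C 8w, the highest level of the 10 genes in that group. After SALI it was at 359, 322 and 335 FPKM in C096, C097 and C098. In C 12w it reached 419 and 609 FPKM in 2e and 3e, ranks 96 and 55 of all listed genes. Again no group overlapped another, but here C 12w stood above the SALI mice. The rise over C 8w was 1.91-fold with SALI (log2 difference 0.93, SE 0.16, limma adjusted p = 0.00299) and 2.90-fold in C 12w (log2 difference 1.51, SE 0.18, limma adjusted p = 0.00246). Between the SALI mice and C 12w the log2 difference was -0.58 (SE 0.18, limma adjusted p = 0.0429), a call that was lost without any 1 sample other than 2e. Without 3e, the C 12w mouse with more Krt18, that difference was -0.31 (limma adjusted p = 0.173).

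The proportion of the keratin pair was alike in both MCLI groups and lower after SALI. In each sample the ratio of Krt18 to Krt8 FPKM was between 2.15 and 2.30 in C 8w and was 2.21 and 2.23 in C 12w, although both genes were almost 3-fold higher there. In the SALI mice the ratio was 0.773, 0.834 and 0.747, so that Krt8 was the more abundant of the pair in all 3 mice. The sum of the pair was 245 to 281 FPKM in C 8w, 709 to 824 FPKM in the SALI mice and 608 and 881 FPKM in C 12w, where the last 2 groups overlapped. In an exact two-sided permutation test of the ratio, the SALI mice against C 8w gave p = 0.1, the smallest value that 3 against 3 mice allow (0.225 adjusted over 9 such tests). The same exact test against C 12w gave p = 0.2, the smallest that 3 against 2 allow. Of the 50-base windows of Krt8 transcripts, 26.9% also occur in the pseudogene Krt8-ps, which was not analysed here, while Krt18 shares 0.72% of its windows with other genes. The MCLI mice and the SALI mice also carry different kinds of code. Whether the assignment of reads or the code moved the ratio, and with it the lead of Krt8, was not tested.

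**Figure D2:**
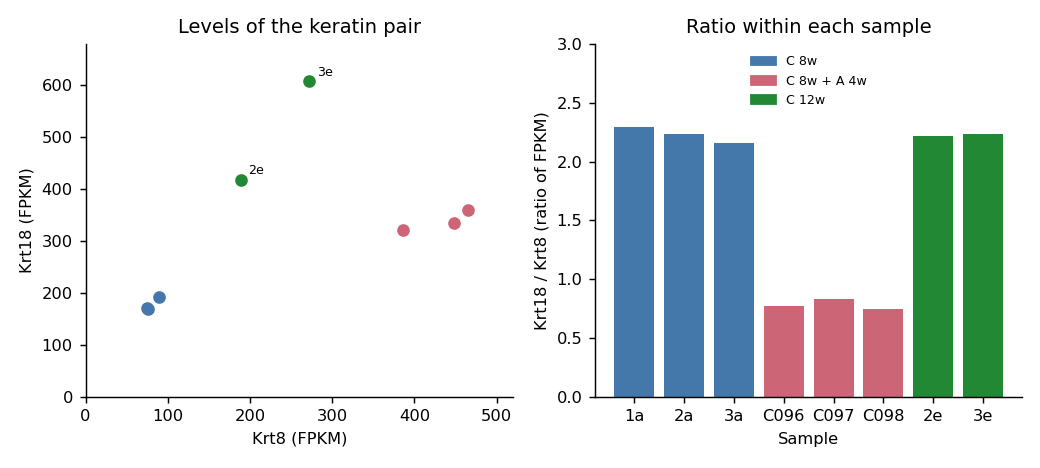
Left, Krt18 against Krt8 FPKM, 1 point per mouse, coloured by group as in the right panel. Right, the ratio of Krt18 to Krt8 FPKM per sample, which was 2.15 to 2.30 in the 5 MCLI samples and 0.747 to 0.834 in the 3 samples with SALI.

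Krt23, a type I keratin known to be induced by stress in mouse liver, was not called in any comparison. It was at 16.9, 18.9 and 24.9 FPKM in 1a, 2a and 3a of C 8w. After SALI it was at 27.5, 10.8 and 13.9 FPKM in C096, C097 and C098, and in C 12w at 16.6 and 21.1 FPKM in 2e and 3e. C096 was the highest and C097 the lowest of all 8 samples, so the spread within the SALI mice covered both other groups. The log2 difference from C 8w was -0.30 with SALI (SE 0.30, limma adjusted p = 0.467) and -0.09 in C 12w (SE 0.34, limma adjusted p = 0.861). Without C096 the first became -0.66 and was called lower (limma adjusted p = 0.0418).

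Of 16 other keratins only Krt19 and Krt20 passed the floor. Krt20, a type I keratin of gastrointestinal epithelium, was between 0.12 and 0.278 FPKM in C 8w, 1.61 to 4.57 FPKM in the SALI mice and 1.26 and 3.48 FPKM in C 12w. It passed the floor through these later samples alone, so its differences from C 8w (1.76 and 1.44 on the log2 scale) are given as a description. Krt19, the keratin of bile duct cells, was 0.354 to 1.43 FPKM in C 8w, 1.25 to 2.22 FPKM after SALI and 0.798 and 1.06 FPKM in C 12w, and was not called. Bile duct cells also make Krt8 and Krt18, and the summed FPKM of 10 bile duct markers moved with them, from 40.6 to 50.9 in C 8w to 72.2 to 85.6 in the SALI mice and to 85.7 (2e) and 410 (3e) in C 12w. Of 7 bile duct markers tested, 2 were called higher with SALI and 4 in C 12w, where 25.3% and 12.2% of all genes tested were called higher, so that the count with SALI is near that of all genes. Epcam (called in both) and Sox9 (called in C 12w) were under 1 FPKM in every C 8w mouse and passed the floor through the later samples alone, which leaves Cdh1 with SALI and Cdh1 and Spp1 in C 12w. In 3e Spp1 made up 311 FPKM of the sum and Sox9 was at 19.9 FPKM, while Krt7 was at or under 1.17 FPKM in every sample. The part of these cells in the keratin rise was not tested.

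Keratin filaments are anchored by plakins and desmosomes. In the list of linkers and desmosome genes, 5 of 10 tested were called higher with SALI and 4 of 10 in C 12w, and none was called lower than in C 8w, with a median difference of 0.50 and 0.56 (0.12 over all genes tested, of which 25.3% and 12.2% were called higher). The plakin Ppl rose by 1.08 with SALI and by 1.70 in C 12w (limma adjusted p = 0.0194 and 0.0117). Its FPKM was 2.06 to 3.10 in C 8w, 4.22 to 9.26 after SALI and 7.50 and 14.8 in C 12w. Dsg2, a desmosomal cadherin, was 3.86 to 4.04 FPKM in C 8w, 5.80 to 6.40 FPKM with SALI and 10.1 and 14.8 FPKM in C 12w, with no overlap of the groups. Its log2 difference from C 8w was 0.50 with SALI (limma adjusted p = 0.0189) and 1.42 in C 12w (limma adjusted p = 0.00151), and it was the 1 gene of this list called between the SALI mice and C 12w (-0.92, limma adjusted p = 0.00265). Dsp, the desmosomal plakin that binds keratin, was 5.71 to 6.37 FPKM in C 8w, 8.20 to 12.6 FPKM with SALI and 10.4 and 24.1 FPKM in C 12w. It was called higher in C 12w (1.27, limma adjusted p = 0.0243) and not with SALI (0.69, limma adjusted p = 0.0731), and the later groups were not called apart (-0.58, limma adjusted p = 0.174). Plec, which links keratins to hemidesmosomes and other filaments, rose by 0.49 with SALI (limma adjusted p = 0.00925), from 6.68 to 8.47 FPKM in C 8w to 10.5 to 11.4 FPKM.

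Of 16 genes of Mallory-Denk bodies and keratin stress, 5 were called higher and 3 lower with SALI, near the 25.3% and 14.1% of all genes tested. In C 12w 2 were called higher and 5 lower, where 12.2% and 6.98% of all genes tested were called, and the median difference was 0.24 with SALI and -0.11 in C 12w. The chaperones Hspa8 and Hsp90aa1 rose by 5.25 and 2.51 with SALI (limma adjusted p = 4.29e-07 and 4.83e-05). Hspa8 was 3.13 to 6.27 FPKM in C 8w, 173 to 232 FPKM in the SALI mice and 8.63 and 8.37 FPKM in C 12w. Both share sequence with other genes (39.4% and 47.5% of windows). Bag3, a co-chaperone with no shared windows, rose by 1.25 (limma adjusted p = 0.000586), from 24.4 to 29.3 FPKM in C 8w to 64.2 to 65.4 FPKM. The inducible Hspa1b, with 62.3% of its windows shared, fell by 1.99 with SALI and by 2.41 in C 12w (limma adjusted p = 0.00236 and 0.00568), and so did its partner Dnajb1 (0.41% shared), by 0.60 and 0.70 (limma adjusted p = 0.0122 and 0.0219). Sqstm1, which encodes the p62 protein of Mallory-Denk bodies, was 318 to 323 FPKM in C 8w, 370 to 447 FPKM with SALI and 369 and 422 FPKM in C 12w, with no overlap with C 8w, and was not called (limma adjusted p = 0.0878 and 0.186). Among the other intermediate filament genes 2 of 6 were called higher with SALI, Lmna (0.85, limma adjusted p = 0.00167) and Synm (1.15, limma adjusted p = 0.00830), and 2 in C 12w, Lmna again (0.62, limma adjusted p = 0.0248) and Lmnb1 (0.86, limma adjusted p = 0.0307). Lmna and Lmnb1 encode lamins of the nucleus, and Synm encodes synemin.

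The tubulin genes have to be read with their sequences in view, because copies are so alike that reads can be credited to the wrong one. The first 60 coding bases, from the start codon, are shown for 3 of the β-tubulin genes (GENCODE M21 transcripts, build GRCm38), in lower case with capitals where the 3 copies differ.
Tubb2a: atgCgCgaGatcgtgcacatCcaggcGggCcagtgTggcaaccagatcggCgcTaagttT
Tubb2b: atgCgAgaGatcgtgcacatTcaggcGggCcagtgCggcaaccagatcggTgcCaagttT
Tubb5: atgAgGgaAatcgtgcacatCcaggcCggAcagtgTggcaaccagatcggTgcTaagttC

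The 3 β copies differ at 10 of these 60 positions. Over the whole coding sequence, compared base by base from the start codon, Tuba1a was identical to Tuba1b at 98.3% of bases and to Tuba1c at 97.2%. Tubb2a was identical to Tubb2b at 96.5% and to Tubb5 at 84.2%. The 3 α genes lie side by side on chromosome 15, with Tuba1b at chr15:98931425-98934565 and Tuba1a at chr15:98949837-98953703 on the minus strand and Tuba1c at chr15:99029891-99038110 on the plus strand. Tubb2a (chr13:34074274-34078007) and Tubb2b (chr13:34126748-34130466) are neighbours on the minus strand of chromosome 13, and Tubb5 is at chr17:35833921-35838306 on the minus strand. The keratin pair is adjacent too, Krt8 at chr15:101996698-102004482 on the minus strand and Krt18 at chr15:102028180-102032027 on the plus strand. The share of 50-base windows found in other genes was 75.5% for Tuba1a, 75.1% for Tuba1b, 52.7% for Tuba1c, 49.6% for Tubb2a and 36.9% for Tubb2b. It was 0.089% for Tubb5 and 0 for Tubb6 and Krt23, so the values of Krt18, Krt23, Tubb5 and Tubb6 are the 4 that rest on their own sequence. Of genes tested with over 25% of windows shared, 29.9% differed by at least 1 on the log2 scale with SALI, against 8.88% of genes with at most 2% shared. In C 12w against C 8w, within 1 kind of code, these shares were 9.19% and 6.47%.

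Tuba1a, an α-tubulin best known from developing neurons, was the lowest of the 3 α genes. It was at 0.837, 0.846 and 1.13 FPKM in 1a, 2a and 3a, at 4.68, 7.20 and 5.16 FPKM in C096, C097 and C098, and at 2.64 and 3.43 FPKM in 2e and 3e. The 3 groups did not overlap. In C 8w 3a alone reached the floor of FPKM 1, so Tuba1a was tested because of its level in the later groups, and being tested and being higher than C 8w are not independent. The difference from C 8w was 1.77 with SALI (SE 0.16, limma adjusted p = 8.66e-05) and 1.05 in C 12w (SE 0.18, limma adjusted p = 0.00784), and the SALI mice were above C 12w by 0.72 (SE 0.18, limma adjusted p = 0.0166), a call lost without 2e (0.57, adjusted p = 0.0579) and with only these groups in the fit (adjusted p = 0.0582). It stayed a minor transcript, 0.548% to 0.698% of the summed α-tubulin FPKM in C 8w and 2.03% to 2.79% in the other 5 samples.

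Tuba1b, a widely expressed α-tubulin, was at 21.04, 20.0 and 21.3 FPKM in 1a, 2a and 3a of C 8w. It was at 38.7, 54.0 and 39.7 FPKM in C096, C097 and C098 and at 24.2 and 34.4 FPKM in 2e and 3e, again with no overlap. The rise with SALI was 2.13-fold (log2 difference 1.04, SE 0.17, limma adjusted p = 0.00201). In C 12w it was not called (log2 difference 0.46, SE 0.19, limma adjusted p = 0.117). The SALI mice were above C 12w by 0.58 (SE 0.19, limma adjusted p = 0.0457), a call lost without any 1 sample other than 3e.

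Tuba1c was the most abundant α-tubulin gene in every sample, between 44.8% and 51.4% of the summed FPKM of 5 α genes (Tuba4a and Tuba8 included). It was at 78.5, 78.0 and 81.3 FPKM in 1a, 2a and 3a, at 112, 146 and 100.3 FPKM in C096, C097 and C098, and at 62.9 and 55.1 FPKM in 2e and 3e. It was the 1 gene of the 10 whose C 12w samples both lay below C 8w. With SALI it rose 1.50-fold (log2 difference 0.57, SE 0.15, limma adjusted p = 0.0190), a call that was lost under median-ratio scaling (adjusted p = 0.0519) and without 1a or 2a. In C 12w the difference of -0.42 (SE 0.17, limma adjusted p = 0.108) was not called, but it was under median-ratio scaling (-0.55, adjusted p = 0.0498). The difference between the SALI mice and C 12w was 0.99 (SE 0.17, limma adjusted p = 0.00320). The 3 copies share most of their sequence, so their sum depends less on how reads were divided among them. It was 98.8 to 103.7 FPKM in C 8w, 145 to 207 FPKM in the SALI mice and 89.7 and 92.9 FPKM in C 12w, so that with SALI the sum lay above C 8w in all 3 mice and in C 12w below it in both.

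Tubb2a, the second most abundant β-tubulin gene in C 8w and with SALI and the most abundant in both C 12w mice, was at 71.6, 79.5 and 91.4 FPKM in 1a, 2a and 3a. It was at 176, 188 and 121 FPKM in C096, C097 and C098 and at 217 and 120 FPKM in 2e and 3e. All 5 later samples lay above C 8w, and the later groups overlapped each other. The log2 difference from C 8w was 0.97 with SALI (SE 0.25, limma adjusted p = 0.0156) and 0.99 in C 12w (SE 0.28, limma adjusted p = 0.0405). The first call was lost without 1a, C096 or C097 (adjusted p = 0.0654, 0.0532 and 0.0504). The second was lost without 1a, 2a, 3a, 2e or C096, with an adjusted p of up to 0.125.

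Tubb2b, a β-tubulin of the nervous system, was near the bottom of the scale in C 8w, at 0.0442, 0.0426 and 0.0434 FPKM. It was at 6.06, 3.95 and 3.54 FPKM in C096, C097 and C098 and at 0.498 and 1.01 FPKM in 2e and 3e. The groups did not overlap in any comparison. It passed the floor through the 3 SALI mice and 3e alone, so being tested and being higher than C 8w are not independent. The difference from C 8w was 2.38 with SALI (SE 0.18, limma adjusted p = 3.62e-05) and 0.73 in C 12w (SE 0.21, limma adjusted p = 0.0408), and the SALI mice were above C 12w by 1.64 (SE 0.21, limma adjusted p = 0.000680). With a pseudocount of 0.1 in place of 1 these differences were 4.97, 2.50 and 2.47 (limma adjusted p = 1.1e-05, 0.00414 and 0.00146), so their size depends on this choice. The C 12w call was lost without the floor (limma adjusted p = 0.0764) and without 1a, 2a, 3a, 3e or C097 (adjusted p up to 0.159). Even in the SALI mice, Tubb2b was 0.635% to 1.17% of the summed β-tubulin FPKM, and it shares 31.3% of its windows with Tubb2a, whose FPKM was far higher. Tubb3, the neuronal β-tubulin, was listed at 0 in all 8 samples, and 5 of 6 neuronal markers were under 1 FPKM in all.

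Tubb5, a widely expressed β-tubulin prominent in dividing cells, was at 24.2, 26.1 and 27.0 FPKM in 1a, 2a and 3a. It was at 31.8, 49.5 and 34.9 FPKM in C096, C097 and C098 and at 43.8 and 97.8 FPKM in 2e and 3e. With SALI it lay above C 8w in all 3 mice but was not called (log2 difference 0.55, SE 0.28, limma adjusted p = 0.151). It was called without 2e or 3e (adjusted p = 0.0233 and 0.0232). In C 12w it rose by 1.31 (SE 0.31, limma adjusted p = 0.0240), and without 3e the difference was 0.74 and not called (adjusted p = 0.0663). That call was also lost without any 1 of the C 8w mice (adjusted p of up to 0.0808).

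Tubb6, a minor β-tubulin, was at 5.30, 6.46 and 7.43 FPKM in 1a, 2a and 3a. It was at 15.7, 16.3 and 11.5 FPKM in C096, C097 and C098 and at 18.9 and 16.5 FPKM in 2e and 3e. All 5 later samples were above C 8w, and both C 12w mice were above all the SALI mice. The rise was 2.27-fold with SALI (log2 difference 1.07, SE 0.16, limma adjusted p = 0.00138) and 2.77-fold in C 12w (log2 difference 1.35, SE 0.18, limma adjusted p = 0.00337). Between the later groups the difference of -0.28 was not called (SE 0.18, limma adjusted p = 0.265). Tubb6 has no shared window, and it was called higher than C 8w in both groups under every alternative that gave a p.

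**Figure D3:**
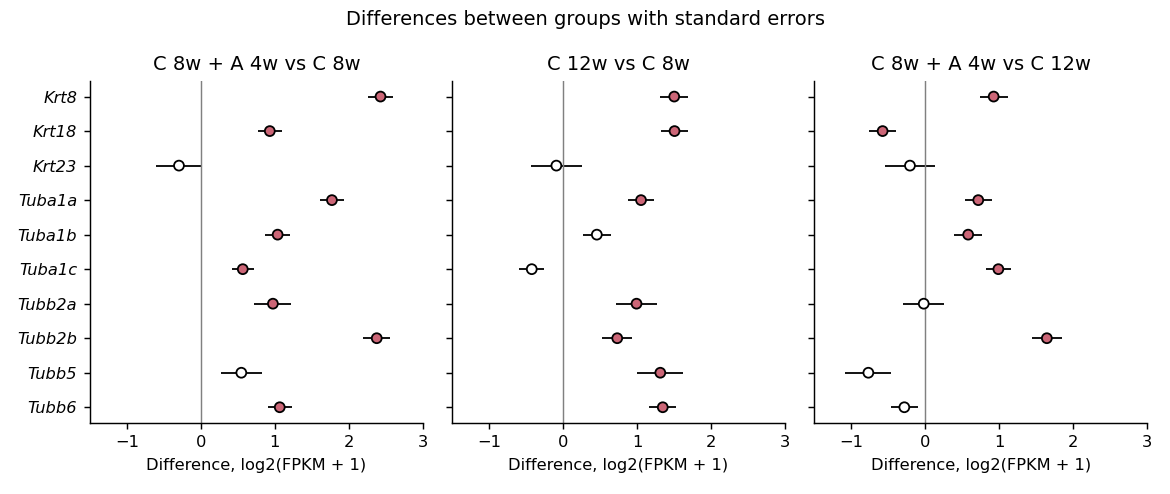
Differences between groups in log2(FPKM + 1) for the 10 genes, with bars of 1 standard error. Filled points have a limma adjusted p under 0.05. They number 8, 7 and 6 of 10 in the 3 panels, and all lie to the right of 0 except Krt18 in the last.

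The SALI mice and C 12w, which both followed 8 weeks of MCLI with 4 more of injury, differed in 6 of the 10 genes, 5 higher and 1 lower in the SALI mice, where 17.4% and 15.4% of all genes tested were called in those directions (32.8% in all). The 5 higher were Krt8, Tuba1a, Tuba1b, Tuba1c and Tubb2b, all among the 6 genes with over 2% shared sequence, and the 1 lower was Krt18. Tubb2b passed the floor through the SALI mice and 3e alone, so its being tested and being higher in the SALI mice are not independent. The groups did not overlap for 7 of the 10 (5 higher, 2 lower), against 52.3% of all genes tested (28.1% higher, 24.2% lower). Of the 4 genes with at most 2% shared sequence, Krt18 was called lower, and Krt23, Tubb5 and Tubb6 were not called, with log2 differences of -0.21, -0.77 and -0.28. The Tubb5 difference rested on which C 12w mouse was kept, at -1.34 without 2e (limma adjusted p = 0.00270) and -0.20 without 3e (limma adjusted p = 0.553). With only these 2 groups in the fit, 3 of the 10 were called.

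The make-up of the β-tubulin transcripts shifted in C 12w. Tubb4b, the main β-tubulin gene in C 8w, was 62.5% to 63.2% of the summed β FPKM in C 8w and 55.3% to 61.6% with SALI, but 35.6% and 32.6% in C 12w. Of its windows 41.3% are shared with other genes, so these shares could depend on how reads were divided. In its place Tubb2a took 49.9% in 2e and 34.3% in 3e (26.4% to 26.7% in C 8w), and Tubb5 took 10.1% and 28.0% (7.89% to 8.98% in C 8w). The 2 C 12w mice thus shared the lower Tubb4b share, but Tubb2a was the larger gain in 2e and Tubb5 in 3e. In FPKM, Tubb4b was 169 to 216 in C 8w, 274 to 365 with SALI and 155 and 114 in C 12w, and it was called higher with SALI (0.68, limma adjusted p = 0.0178) but not lower in C 12w (-0.52, limma adjusted p = 0.0980). For the Tubb4b share the exact permutation test gave p = 0.2 for C 12w against C 8w, the smallest that 2 against 3 mice allow. The summed β FPKM over the summed α FPKM was 1.77 to 2.11 in C 8w, 2.14 to 2.31 in the SALI mice and 3.34 and 2.84 in C 12w, and the groups did not overlap. The α sum was lower in C 12w (130 and 123 FPKM) than in C 8w (153 to 162 FPKM), while the β sum was higher (434 and 349 against 270 to 342 FPKM).

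**Figure D4:**
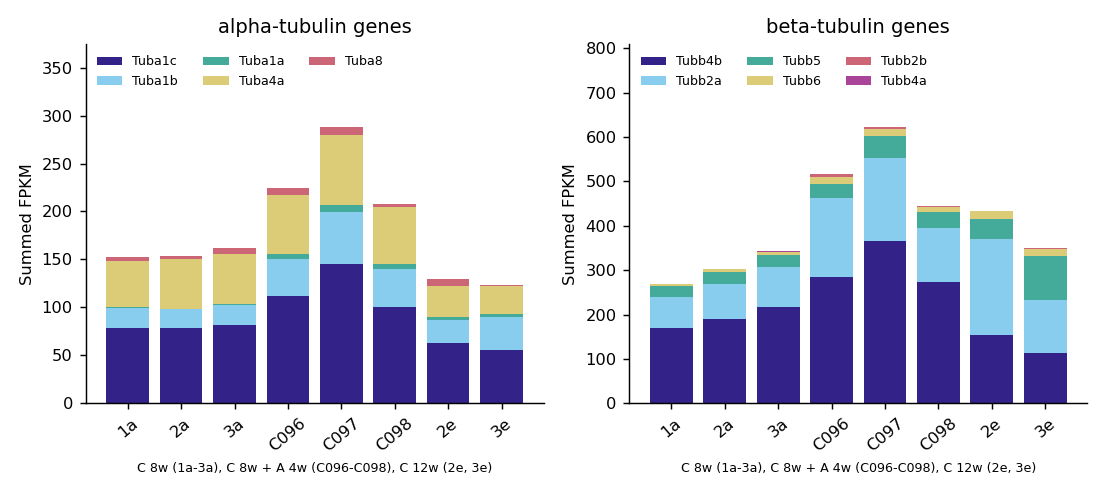
Summed FPKM of the α-tubulin (left) and β-tubulin (right) genes per sample, with a colour for each gene. Tubb4b made up 62.5% to 63.2% of the β sum in C 8w and 35.6% and 32.6% in 2e and 3e, and Tuba1c was 44.8% to 51.4% of the α sum in every sample.

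Of 13 further tubulin genes, Tubd1 and Tube1 included, 5 passed the floor, Tubd1 among them. With SALI 3 were called higher, Tubb4b, the γ-tubulin Tubg1 of the centrosome (0.53, limma adjusted p = 0.00359) and Tuba4a (0.35, limma adjusted p = 0.0449). In C 12w none was called higher and Tuba4a was called lower, at 32.7 and 29.0 FPKM against 47.6 to 52.1 FPKM in C 8w (-0.69, limma adjusted p = 0.0119). The median difference of the 5 was 0.35 with SALI and -0.52 in C 12w, beside 0.12 over all genes tested, of which 25.3% were called higher with SALI and 6.98% lower in C 12w.

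New tubulin chains are folded by the CCT chaperonin, prefoldin and the tubulin cofactors. Of 20 such genes tested, 7 were called higher and none lower with SALI, and 1 was called higher and 1 lower in C 12w. Over all genes tested 25.3% and 12.2% were called higher, and the median difference of the 20 was 0.25 with SALI and 0.09 in C 12w, beside 0.12 over all genes. Tbca, the cofactor that holds β-tubulin, was 38.7 to 50.3 FPKM in C 8w, 152 to 217 FPKM with SALI and 46.4 and 31.6 FPKM in C 12w. Its rise with SALI was 2.06 (limma adjusted p = 0.000117). The prefoldin subunit Pfdn5 rose by 1.56 (limma adjusted p = 6.06e-05), from 8.01 to 11.3 FPKM to 29.2 to 33.1 FPKM. The chaperonin subunit Cct2, with no shared sequence, rose by 0.49 (limma adjusted p = 0.0197), from 58.9 to 72.1 FPKM to 82.2 FPKM or more in each SALI mouse. In C 12w the cofactor Tbce was called higher (0.65, limma adjusted p = 0.0185) and Pfdn2 lower (-0.68, limma adjusted p = 0.00936). Of 8 tubulin-modifying enzymes, 1 was called higher (Ttll12) and 1 lower (Sirt2) with SALI and 1 higher (Ttll4) in C 12w, no larger a share than over all genes tested with SALI (25.3% higher and 14.1% lower) and close to the 12.2% higher in C 12w.

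Of 26 genes of proteins that bind microtubules or move along them, 14 were called higher and 1 lower with SALI and 8 higher and none lower in C 12w. The median difference was 0.36 and 0.35, beside 0.12 over all genes tested, of which 25.3% and 12.2% were called higher. The end-binding gene Mapre3 was 10.6 to 14.9 FPKM in C 8w, 26.1 to 28.3 FPKM with SALI and 15.5 and 14.6 FPKM in C 12w, and rose by 1.04 with SALI (limma adjusted p = 0.000519). The kinesin heavy chain Kif5b rose by 0.89 with SALI and by 0.93 in C 12w (limma adjusted p = 0.000714 and 0.00431). Stmn1, which sequesters tubulin dimers and is prominent in dividing cells, was 1.62 to 2.35 FPKM in C 8w, 3.71 to 4.35 FPKM with SALI and 6.01 and 12.0 FPKM in C 12w. It was called higher in both (0.74, limma adjusted p = 0.0253, and 1.68, limma adjusted p = 0.00426). The spindle gene Ckap5 was called higher in C 12w (0.88, limma adjusted p = 0.00806) and below C 12w in the SALI mice (-0.68, limma adjusted p = 0.0101). The dynactin subunit Dctn2 was called lower with SALI (-0.49, limma adjusted p = 0.00937) and higher in C 12w (0.52, limma adjusted p = 0.0239).

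**Figure D5:**
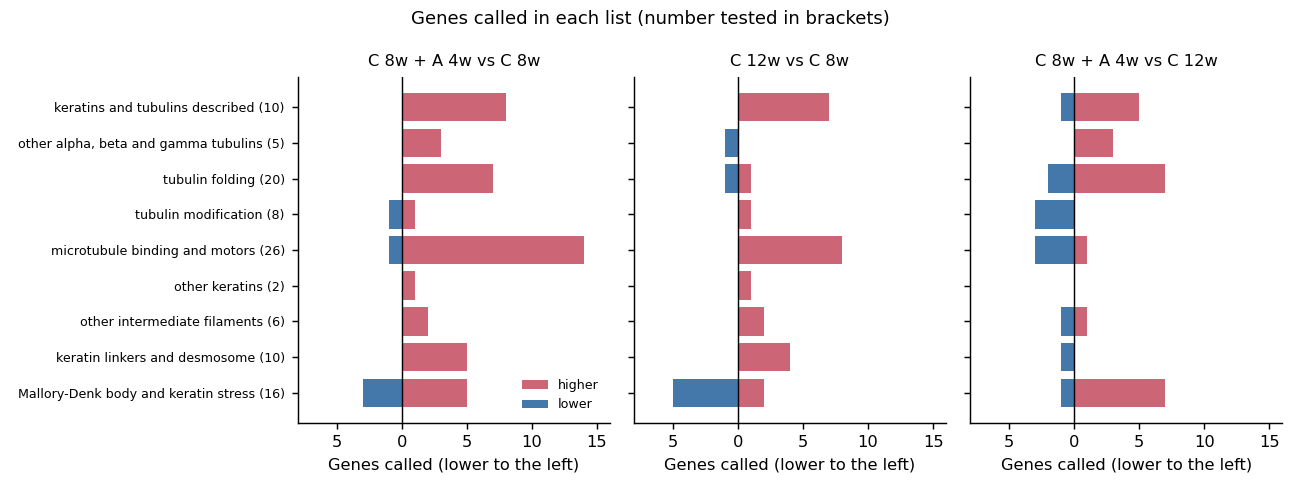
Number of genes called higher (right of 0) or lower (left of 0) in each list and comparison, with the number tested in brackets. Microtubule binding and motor genes held 14 calls higher and 1 lower of 26 with SALI, and tubulin folding genes 7 higher and none lower of 20.

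Markers of other cells are set beside the tubulins as a description, and not all of them moved with the tubulins. The summed FPKM of 10 markers of proliferating cells was 3.20 to 4.24 in C 8w, 2.56 to 4.61 in the SALI mice and 52.5 and 63.1 in C 12w. Only Cdc20 of these passed the floor, through the later samples alone, at 0.607 to 0.717 FPKM in C 8w and 14.5 and 11.9 FPKM in 2e and 3e. Mki67 was at 4.34 and 6.24 FPKM in 2e and 3e and at or under 0.393 FPKM elsewhere. The part of dividing cells in the C 12w values of Tubb5, Tubb6 and Stmn1 was not tested. Among the SALI mice, C097 had the highest Tuba1a, Tuba1b, Tuba1c, Tubb2a, Tubb5 and Tubb6, and it also had the highest sum of 10 macrophage markers (526 FPKM, against 160 and 185 FPKM in the other two and 196 to 233 FPKM in C 8w). Without C097 the rises with SALI were 1.61 for Tuba1a, 0.89 for Tuba1b, 0.41 for Tuba1c and 0.98 for Tubb6, all called (limma adjusted p = 0.000235, 0.00523, 0.0388 and 0.00580), and 0.85 for Tubb2a and 0.36 for Tubb5, not called (adjusted p = 0.0504 and 0.372). Of 8 endothelial markers, 4 were called lower in each comparison with C 8w (14.1% of all genes tested with SALI and 6.98% in C 12w), and 1, Lyve1, was called higher with SALI (1.18, limma adjusted p = 0.0177), with sums of 59.2 to 65.1 FPKM in C 8w, 28.4 to 49.9 FPKM with SALI and 38.3 and 33.0 FPKM in C 12w. All 8 lymphocyte markers were under 1 FPKM in every sample, and the sum of 10 stellate cell and fibroblast markers was 91.9 to 103 FPKM in C 8w, 94.3 to 155 FPKM with SALI and 81.5 and 104 FPKM in C 12w. Within that list the collagens Col3a1 and Col1a2 were called higher in C 12w (1.60 and 1.29, limma adjusted p = 0.0253 and 0.0361) and Dcn lower (-0.71, limma adjusted p = 0.0311), and with SALI Col3a1 was called lower (-1.09, limma adjusted p = 0.0349).

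By level in C 8w the 10 genes stood in the order Krt18 (177 ± 12.6 FPKM, SD, n = 3), Tubb2a (80.8 ± 9.93), Krt8 (79.7 ± 8.09), Tuba1c (79.3 ± 1.78), Tubb5 (25.8 ± 1.40), Tuba1b (20.8 ± 0.708), Krt23 (20.2 ± 4.15), Tubb6 (6.39 ± 1.07), Tuba1a (0.938 ± 0.167) and Tubb2b (0.0434). Tubb2a, Krt8 and Tuba1c overlapped one another, as did Krt23 with Tuba1b and Tubb5. In the SALI mice Krt8 led (433 ± 41.4), above Krt18 (339 ± 18.7) and Tubb2a (162 ± 35.9), with no overlap between these 3. Krt8 shares 29.7% of its windows with other genes, and the part of read assignment in its lead was not tested. In C 12w Krt18 led again (514 ± 134, SD, n = 2), and Krt8 (231 ± 58.9) overlapped Tubb2a (168 ± 68.4).

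The genes whose log2(FPKM + 1) followed each of the 10 most closely over the 8 samples were found by Pearson's r, as a description, since the 8 samples fall into 3 groups and share them. Krt8 was followed by Dnajc10 (r = 0.993), Acot9 (0.991) and S100a11 (0.990), and Krt18 by Nrg1 (0.985) and Myadm (0.980). For Tubb5 the nearest were Bclaf3 (0.993), Rps6ka3 (0.991) and the bile duct marker Sox9 (0.991). Tubb6 was followed by Fhl3 (0.987), Acbd3 (0.986) and the spindle gene Haus6 (0.983), and Tubb2a by Aftph (0.980). The nearest to Tuba1a, Tuba1b, Tuba1c and Tubb2b were Lrrc8b (0.992), Noc3l (0.981), Sgtb (0.995) and Rpl4 (0.995), and Krt23 had the loosest match, Rpain (0.936).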

How the data were processed

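RNA of 8 Fah-/- mice in 3 groups was compared. The deposited values are FPKM, scaled by the authors to gene length and mapped fragments. The submitters' processing notes name Bowtie 0.12.2 and the build mm8 without a role, and the quantifier and annotation are not given in the sources used here. Depth cannot be recovered from FPKM.

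A floor of FPKM 1, reached in 4 or more of the 8 samples, kept 10244 of 22504 genes. Their log2(FPKM + 1) was fitted by limma 3.58.1 under R 4.3.3 (functions lmFit and eBayes, with trend), as 3 group means over all 8 samples. Tests were two-sided, with Benjamini-Hochberg adjustment over all genes kept and a threshold of 0.05. The fit was tested on simulated data. Shared sequence is the percentage of windows of 50 bases in the GENCODE M21 transcripts of a gene that also occur, on either strand, in another gene, counted with Python 3.11.15. It is not known whether the authors used that annotation.

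The members and lists were chosen with earlier results of these data known. All 10 members were named, in each list at most the 4 largest called and non-overlapping genes per direction and comparison, and for each member the 3 most correlated genes. Some of these results are not reported here. Other genes given with values (Sqstm1, Krt19, Krt7 and the marker genes) were chosen after their values were seen or as defining markers. The alternatives were a pseudocount of 0.1, no floor or a floor of FPKM 10, median-ratio scaling, genes with at most 2% shared sequence, a log2 limit of 1, a fit of only the compared groups, a prior without trend, each sample left out, a replicate block and sums over gene copies. Samples labelled as separate mice were taken as replicates.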

Additional observations from a re-analysis of the deposited data

How the results depend on the processing

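The rises of Krt8, Krt18, Tuba1a, Tuba1b, Tubb2b and Tubb6 with SALI kept an adjusted p under 0.05 (limma) in every alternative that gave a p. Tuba1a and Tubb2b reached the floor only through the later groups, so their being tested and being higher are not independent. A floor of FPKM 10 and the limit of 2% shared sequence gave no p for either. Of 517 single-gene values under an alternative, 431 kept their direction and their side of the threshold, 62 were no longer called and 8 became called. A further 8 turned their sign and 8 were classed only as moved. Leaving out 1 sample at a time gave 2469 to 5189 genes (6 to 9 members) for C 8w + A 4w against C 8w, 677 to 3702 (4 to 7) for C 12w against C 8w and 2494 to 4214 (4 to 5) for C 8w + A 4w against C 12w, where all samples gave 4034 (8), 1962 (7) and 3356 (6). A floor of FPKM 10 gave 1844, 851 and 1625 genes of 3902 tested, and without a floor 4 members were called for C 12w against C 8w. Among genes with at most 2% shared sequence 2194, 1241 and 1767 genes and 2, 3 and 1 of 4 members were called. A log2 limit of 1 left 1128, 533 and 1177 genes, with 5 members in the first comparison and 1 in the last. With only the 2 groups compared, C 8w + A 4w against C 12w gave 1996 genes and 3 members. Median-ratio scaling moved the median difference of all genes from 0.12 to 0.01 in both comparisons with C 8w and the share of calls that were higher from 64.2% to 49.4%, from 63.6% to 47.4% and from 53.1% to 50.5%, and under it Tubb2a was no longer called in C 12w (adjusted p = 0.0712). The signs that turned belonged to differences that were not called, except for the sums. They were Tubb2a in C 8w + A 4w against C 12w (0.0101 under median-ratio scaling over genes with at most 2% shared sequence, 0.1762 without C098, and -0.4441 to 0.4051 over the samples left out), Krt23 in C 12w against C 8w (-0.2547 to 0.07471 over the samples left out, above 0 without 2e or 3a) and Krt23 in C 8w + A 4w against C 12w (-0.5741 to 0.06383, above 0 without C097). Summing copies turned Tuba1a in C 12w against C 8w to -0.14 and Tubb2b in C 8w + A 4w against C 12w to -0.24, since both are small parts of their sums.

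Replicate numbers 2 and 3 occur in C 8w and in C 12w, but the differences between those numbers did not go together (correlation -0.19 over 10244 genes), and they were not taken as pairs. With the number as a replicate block on these 4 samples, 252 genes and 1 member (Tubb6) were called. No depth is known, groups hold 2 or 3 mice, and the 6 members with shared sequence could trade reads with their copies, to an extent that was not tested.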
